A study of Homo sapiens with 6 samples.

Results

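Transcript levels were compared in U2OS, an established osteosarcoma cell line of human origin, between 3 h and 12 h after release from a hydroxyurea block. The labels place these times in S phase and at the boundary of G2 and mitosis. All cells had been held for 24 h in 4 mM hydroxyurea, which stalls replication by depleting deoxynucleotides, and were then washed. They carried either a control siRNA without an intended target (siNT) or an siRNA against E2F7 (siE2F7), an atypical E2F factor that represses E2F target genes. The comparison used 4 of the 6 libraries of the series, 1 for each siRNA at 3 h and at 12 h, and the 2 arms served as 2 repeats of the time change. The 2 libraries of 0 h, the end of the block, are given only as context. Values are FPKM, in which fragment numbers are divided by transcript length and by library size, and their depth is unknown. The tables of all times together hold 13161 genes. Those of 3 h and 12 h share 11981, and 8847 of these had a mean of at least 5 FPKM over the 4 libraries with none at 0. These 8847 were tested.

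Cells that pass from S phase to mitosis exchange one transcriptional programme for another. In textbook terms, E2F activators switch on replication genes at the start of S phase, and the MuvB complex, with B-MYB and then FOXM1, switches on mitotic genes in G2. Many mitotic promoters hold a CHR element, which MuvB binds, at a short distance downstream of CCAAT boxes, which NF-Y binds. E2F sites mark the promoters of replication genes. A separate, fast class of genes, the immediate early genes and the cytokines controlled by NF-kB, answers stimulation within hours and then declines.

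Both kinds of cell cycle promoter are shown for genes that moved in opposite directions between 3 h and 12 h. The first 4 rose, the last 2 fell. Each run covers 150 bases before and 50 bases after the transcript start, 5′ to 3′ on the strand of the gene, from RefSeq on GRCh38.p14. Capitals mark the letters TTTGAA or TTCGAA (CHR), CCAAT (the NF-Y box) and TTTCCCGC, TTTGGCGC or TTCCCGCC (E2F), searched on both strands.
PSRC1, chr1:109283096-109283295, minus strand: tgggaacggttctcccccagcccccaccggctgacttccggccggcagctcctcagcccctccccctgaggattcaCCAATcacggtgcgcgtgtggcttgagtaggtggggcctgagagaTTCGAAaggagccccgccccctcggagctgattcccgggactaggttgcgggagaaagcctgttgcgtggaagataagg
PLK1, chr16:23678739-23678938, plus strand: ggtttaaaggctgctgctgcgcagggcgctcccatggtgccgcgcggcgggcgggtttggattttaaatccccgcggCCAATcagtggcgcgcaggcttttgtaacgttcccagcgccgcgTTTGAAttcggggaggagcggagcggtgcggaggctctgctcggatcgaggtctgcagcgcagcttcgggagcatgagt
CDC20, chr1:43358831-43359030, plus strand: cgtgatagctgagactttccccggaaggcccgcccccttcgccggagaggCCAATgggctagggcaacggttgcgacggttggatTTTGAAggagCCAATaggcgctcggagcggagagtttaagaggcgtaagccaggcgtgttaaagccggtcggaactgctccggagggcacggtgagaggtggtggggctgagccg
CCNB2, chr15:59104996-59105195, plus strand: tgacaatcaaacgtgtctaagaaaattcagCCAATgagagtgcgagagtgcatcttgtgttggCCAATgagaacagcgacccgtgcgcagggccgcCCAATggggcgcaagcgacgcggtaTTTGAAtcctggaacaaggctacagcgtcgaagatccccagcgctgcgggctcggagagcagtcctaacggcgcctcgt
CDC6, chr17:40287729-40287928, plus strand: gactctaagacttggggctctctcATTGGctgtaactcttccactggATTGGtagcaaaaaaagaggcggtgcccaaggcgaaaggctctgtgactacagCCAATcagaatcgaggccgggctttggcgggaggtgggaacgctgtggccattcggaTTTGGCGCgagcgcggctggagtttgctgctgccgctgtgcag
CLSPN, chr1:35769929-35770128, minus strand: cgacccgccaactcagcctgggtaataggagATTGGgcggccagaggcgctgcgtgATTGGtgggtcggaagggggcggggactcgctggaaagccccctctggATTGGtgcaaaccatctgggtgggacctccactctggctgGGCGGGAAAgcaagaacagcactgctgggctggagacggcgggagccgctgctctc

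In PSRC1, PLK1 and CCNB2 the CHR letters began 29 bases before the start. CDC20 held them 65 bases before the start, between CCAAT boxes at 100 and 55 bases. CCNB2 had CCAAT boxes 54, 87 and 120 bases before the start. CDC6 held E2F letters just downstream of its start, and CLSPN held 2 overlapping E2F matches on the opposite strand within 6 bases of the start. The PSRC1 match reads the same on both strands and counts as 1 place.

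Promoters of 300 bases, 250 before to 50 after the start, were matched for 7060 of the 8847 genes. CHR letters stood in 10.6% of these 7060 and in 47.5% of the 40 matched genes that rose at least 2-fold in both arms. The share was 19% of 1033 genes called higher and 7.9% of 924 genes called lower by the test described below. It was 13.8% of the 58 matched genes that fell at least 2-fold in both arms. CCAAT letters stood in 37.3% of all matched genes, 44.1% of those called higher and 37.2% of those called lower. They stood in 70% of the 2-fold risers and 39.7% of the 2-fold fallers. They were not particular to risers. The share was 68.2% in the G2/M list described below, and 71% in the S phase list, which had no gene called higher. In 2 other such lists it was 94.1% (chaperones of the endoplasmic reticulum) and 12.5% (NF-kB targets and cytokines). All 19 of the 2-fold risers with CHR letters also had CCAAT letters. E2F letters stood in 8.33% of all matched genes, 5.91% of those called higher and 9.09% of those called lower. They stood in 7.5% of the 2-fold risers and 6.9% of the 2-fold fallers. The lower genes as a whole thus lay near the background. Over all 27305 promoters of the RefSeq table the shares were 16.6% for CHR, 35.7% for CCAAT and 4.61% for E2F letters. A match of letters is a description of the sequence and not a site shown to be bound.

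**Figure D1:**
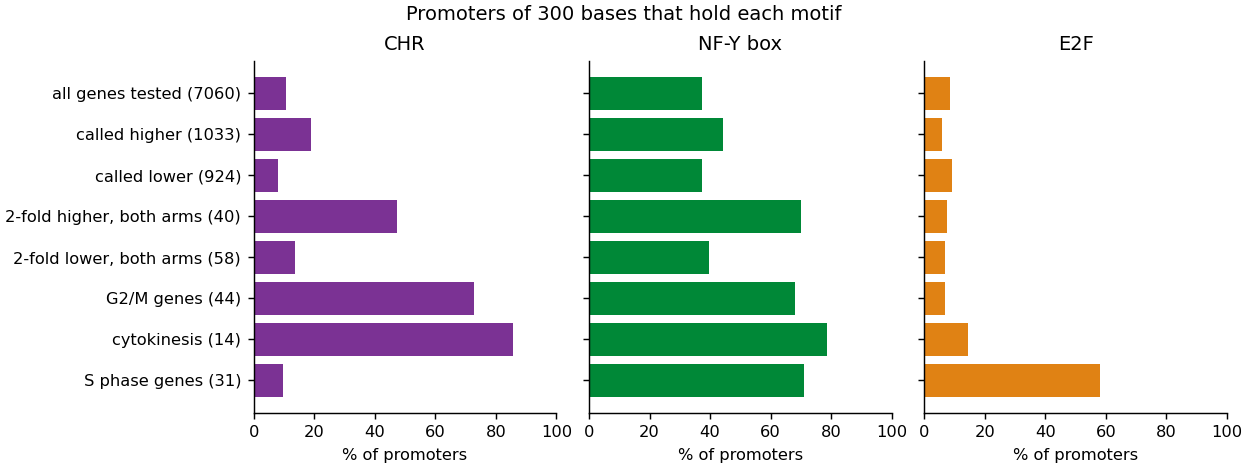
Share of 300-base promoters that hold the CHR, NF-Y box (CCAAT) or E2F letters, in percent, with the number of matched promoters in brackets. CHR letters reach 72.7% of the G2/M genes and 85.7% of the cytokinesis genes, and E2F letters reach 58.1% of the S phase genes, against 10.6% and 8.33% of all genes tested. These are the highest lists. Lists not drawn include the anaphase-promoting complex, with 27.8% for CHR letters, and the G1/S regulators, with 14.3% for E2F letters.

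E2F7 itself (hg19, chromosome 12, 77415026 to 77459360) stood at 29.4 FPKM in siNT and 10.6 FPKM in siE2F7 at 3 h, and at 16.6 and 5.52 FPKM at 12 h. At 0 h it was at 20.3 and 9.48 FPKM. The siE2F7 library was the lower of its pair at each time, as its label calls for. In the time comparison E2F7 fell by 0.82 in siNT and by 0.93 in siE2F7 on the log2 scale, a mean change of -0.88 ± 0.10 (SE; limma, adjusted p = 0.00046). The remaining transcript in the knockdown therefore followed the same direction as in the control.

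The time change was computed per arm as log2 of FPKM + 0.1 at 12 h over FPKM + 0.1 at 3 h, and tested with limma with the arm as a block and Benjamini-Hochberg adjustment at 0.05. By this test 1276 genes (14.4% of those tested) were higher at 12 h and 1157 (13.1%) were lower. At least 2-fold changes in both arms were seen in 47 genes (0.531%) upwards and 71 genes (0.803%) downwards, and all of these also passed the test. Most of the called changes were small, since 66.5% of the called genes changed less than 1.5-fold. In 2577 genes (29.1%) both 12 h libraries were above both 3 h libraries, and in 2023 (22.9%) both were below. Across genes the changes of the 2 arms had a Pearson r of 0.76 and a Spearman rho of 0.72, and 75.9% of genes had the same sign. Genes are not independent replicates, and the arms share the deposited processing of each time. The median change was 0.03 over all genes, 0.05 in siNT and -0.01 in siE2F7. The shares of 14.4% and 13.1% are the background for every count of called genes in a list.

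The test rests on the pairing by arm. Without the arm as a block, 3 genes were called higher and 5 lower, with 1801 genes at an unadjusted p under 0.05. The residual of the paired fit is the difference between 2 ratios, which also holds any time-dependent effect of the knockdown. Separate cultures are not stated in the labels, and the p-values therefore cover only the spread among these 4 libraries. How the 3 h and 12 h tables were scaled to each other is not documented. All 2433 called genes kept their direction when the libraries were centred on their medians and after quantile normalization. Centring could not turn a call, since it moved the median change only from 0.029 to 0.009 and the smallest called change was 0.256 in size. Both procedures set the libraries to a common level, so the scaling between the times was not tested.

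**Figure D2:**
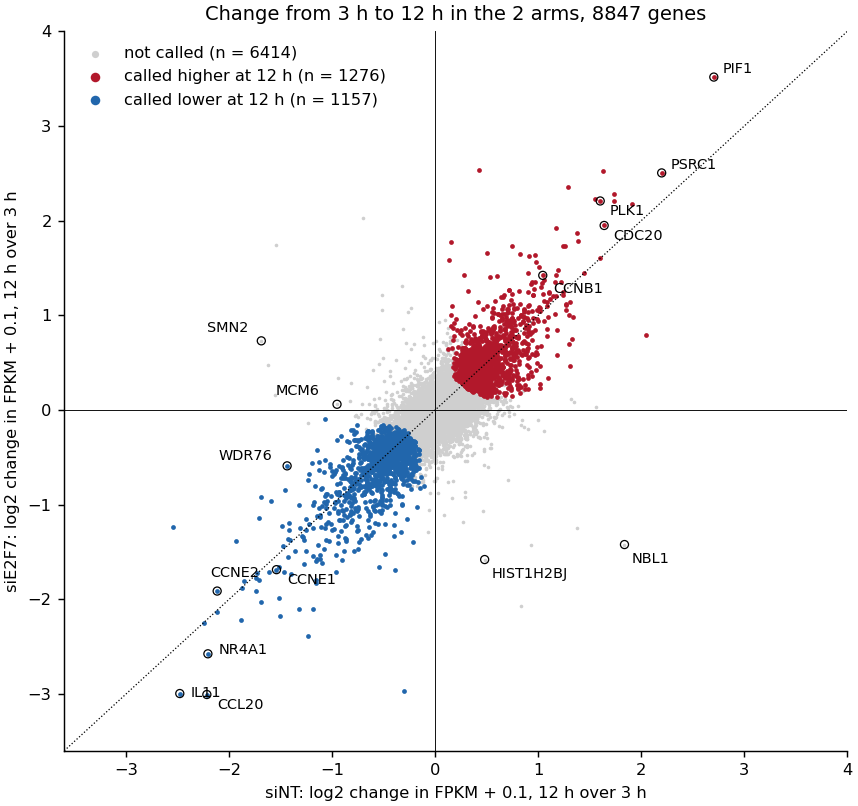
Log2 change from 3 h to 12 h in siNT (x axis) against siE2F7 (y axis) for 8847 genes, with called genes in red and blue and equal changes on the dotted line. PIF1 and PSRC1 lie at the upper end in both arms, IL11 and CCL20 at the lower end, and NBL1, SMN2 and HIST1H2BJ lie off the diagonal.

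Most mitotic genes tested were higher at 12 h. A published list of G2/M genes had 54 members tested, of which 50 were called higher and 0 lower, with a median change of 0.79. In 48 of the 54 both 12 h libraries were above both 3 h libraries, against 29.1% of all genes. The 4 members without a call, LBR, TMPO, CBX5 and CKS1B, had changes from 0.03 to 0.29. Over 6 overlapping mitotic lists together, 104 of 143 tested genes were higher and 3 were lower, and the 104 include 23 of the 47 genes that rose at least 2-fold in both arms. In bulk RNA, more cells in a phase and more transcript per cell cannot be told apart.

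PIF1, a DNA helicase (hg19, chromosome 15, 65107833 to 65117838), had the largest mean change of all tested genes. It stood at 4.84 FPKM in siNT and 2.97 FPKM in siE2F7 at 3 h, and at 32.1 and 35.1 FPKM at 12 h. The 12 h libraries were far above the 3 h libraries, and the 0 h libraries were as low as those of 3 h, at 3.93 and 2.55 FPKM. The mean change was 8.63-fold, or 3.11 ± 0.17 on the log2 scale (SE; limma, adjusted p = 6.9e-06). PSRC1, a microtubule-associated protein of the spindle (chromosome 1, 109822176 to 109825790), went from 10.7 and 11.4 FPKM to 49.6 and 65.3 FPKM, a log2 change of 2.35 ± 0.10 (limma, adjusted p = 2.6e-06). Its arms differed by little, with 2.20 in siNT and 2.50 in siE2F7.

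Among the kinases and cyclins of mitotic entry, 13 of 20 tested genes rose and 2 fell. PLK1, the Polo kinase that drives entry into mitosis (chromosome 16, 23690201 to 23724821), was at 26.8 FPKM in siNT and 23.5 FPKM in siE2F7 at 3 h and at 81.6 and 109 FPKM at 12 h. Its log2 change was 1.90 ± 0.13 (limma, adjusted p = 2.6e-05). BORA, the cofactor through which Aurora A activates PLK1, rose from 4.17 and 2.95 FPKM to 14.1 and 14.7 FPKM. It shares its locus with another entry, where reads may have been divided. AURKA, the Aurora A kinase, rose from 48.4 and 35.8 FPKM to 115 and 119 FPKM, a log2 change of 1.49.

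CCNB1, the cyclin B1 partner of CDK1 (chromosome 5, 68462837 to 68474070), rose from 93.6 and 87.5 FPKM to 193 and 234 FPKM, a log2 change of 1.23 ± 0.11 (limma, adjusted p = 0.0001). CCNB2, the second B cyclin, rose from 45.0 and 52.6 FPKM to 97.5 and 119 FPKM. CCNA2, the cyclin of S phase and G2, changed less, by 0.66, and at 12 h its siNT library (76.7 FPKM) stood close to the siE2F7 library of 3 h (72.1 FPKM). CDK1, the mitotic kinase itself, was abundant at both times, from 175 and 220 FPKM to 228 and 295 FPKM, a change of 0.40 (limma, adjusted p = 0.019). In value the 3 cyclins changed more than the kinase.

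The phosphatases that remove the inhibitory phosphate from CDK1 divided by isoform. CDC25B rose by 1.15 and CDC25C by 1.16, whereas CDC25A, the isoform that also acts at the G1/S transition, went from 25.6 and 48.6 FPKM to 15.5 and 27.6 FPKM, a change of -0.77 (limma, adjusted p = 0.00041). WEE1, the opposing kinase, rose by 0.36. The other gene of the list that fell was ARPP19, an inhibitor of the phosphatase PP2A, at -0.28. CCNF, an F-box cyclin, rose by 1.22.

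Of the spindle motors and spindle-assembly factors 27 of 29 rose and none fell, with a median change of 0.79. FAM83D, which recruits casein kinase to the spindle, rose from 28.2 and 29.0 FPKM to 106 and 131 FPKM. KIF20A, the kinesin of the central spindle, rose from 13.3 and 14.0 FPKM to 44.5 and 64.9 FPKM. C15orf23, now named KNSTRN and part of the astrin complex at kinetochores, rose by 1.62. The microtubule crosslinker NUMA1 was at the low end of the called members, with 0.30, and KIF2A (0.12) and HAUS1 (-0.20) had no call.

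All 18 tested cytokinesis genes were called higher, with a median of 0.74. In 16 of 18 both 12 h libraries were above both 3 h libraries, against 29.1% of all genes. The largest changes after KIF20A were those of DEPDC1 (1.5) and CDCA3 (1.44), a trigger of mitotic entry. CDCA3 had the same change of 1.44 in each arm. CIT, the citron kinase of the cleavage furrow, overlapped between times. It was at 6.26 FPKM in siNT and 12.2 FPKM in siE2F7 at 3 h, and at 10.3 and 25.7 FPKM at 12 h. MKI67, the proliferation marker, rose by 0.48, from 35.1 and 46.7 FPKM to 44.0 and 72.6 FPKM.

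Kinetochore and spindle checkpoint genes were mixed in extent, with 27 of 45 higher and 1 lower. SGOL2, a shugoshin that protects centromeric cohesion, led with 1.55. CDCA8 (1.3), AURKB (0.86), INCENP (0.78) and BIRC5 (0.58), the 4 subunits of the chromosomal passenger complex, all rose. Of the centromere proteins, CENPE (1.27), CENPA (1.10) and the CENPA chaperone HJURP (1.24) rose. The inner kinetochore subunits CENPH (-0.25), CENPK (-0.02), CENPN (0.03), CENPM (0.10) and CENPW (0.12) had no call, and CENPQ was lower, with -0.48 (limma, adjusted p = 0.0055).

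Among genes of the anaphase-promoting complex, the ubiquitin ligase that ends mitosis, 10 of 19 rose and none fell. CDC20, its mitotic activator (chromosome 1, 43824626 to 43828873), rose from 66.8 and 59.5 FPKM to 208 and 230 FPKM, a log2 change of 1.79 ± 0.10 (limma, adjusted p = 8.3e-06). The levels at 0 h were 68.7 and 55.7 FPKM, close to those of 3 h. The E2 enzyme UBE2C rose by 1.04, the separase inhibitor PTTG1 by 0.92 and separase itself, ESPL1, by 1.21. FZR1, the activator used after mitosis and in G1, rose by 0.75. Of the core subunits, CDC16 (0.65) and CDC27 (0.52) were called and ANAPC4 (0.03) and ANAPC5 (0.09) were not.

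Chromosome structure and centrosome lists had medians closer to 0 than the spindle list. Of 21 cohesin and condensin genes 5 rose, led by TOP2A (0.66, from 134 and 167 FPKM to 198 and 283 FPKM) and NCAPD2 (0.51), and the median was -0.03. Of 20 centrosome genes 6 rose, led by NEK2 (1.19), and the median was 0.09. With all 6 libraries in the fit and 1 left out, the 5 dropped to 1 without siE2F7 at 12 h and 3 without siNT at 3 h, and the 6 to 2 without siE2F7 at 12 h or at 3 h. Of 10 genes of the DREAM and MuvB complexes LIN9 alone was called, with 0.53, while the fit with all 6 libraries called 2, and 0 without siE2F7 at 3 h. FOXM1, the late activator of mitotic genes, was at 90.5 and 102 FPKM at 3 h and at 97.0 and 138 FPKM at 12 h, a change of 0.26 without a call (limma, adjusted p = 0.089). MYBL2, which encodes B-MYB, had a change of -0.23 without a call. After quantile normalization both passed the test, with adjusted p = 0.0223 for FOXM1 and 0.00677 for MYBL2 and values of 0.25 and -0.28.

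Outside the lists, 23 of the 47 genes that rose at least 2-fold in both arms had no place in any list used here. Among the 20 largest risers these were PIF1, TNFAIP8L1, SAPCD2, GPSM2, ZMYM1, SUN2 and the small RNA entry SNORD29. GPSM2, a spindle orientation factor, rose by 1.60 and shares its locus with another entry. Others, picked out after their values were seen, were the DNA methyltransferase DNMT3B (1.26), the DNA glycosylase NEIL3 (1.05) and 3 FAM72 copies, FAM72A, FAM72B and FAM72D, between 1.09 and 1.17. The FAM72 genes are near-identical copies whose reads cannot be assigned with certainty. EME1, a subunit of the MUS81 endonuclease that resolves joint DNA molecules before mitosis, rose by 1.19 and was the 1 called riser of 24 homologous recombination genes.

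**Figure D3:**
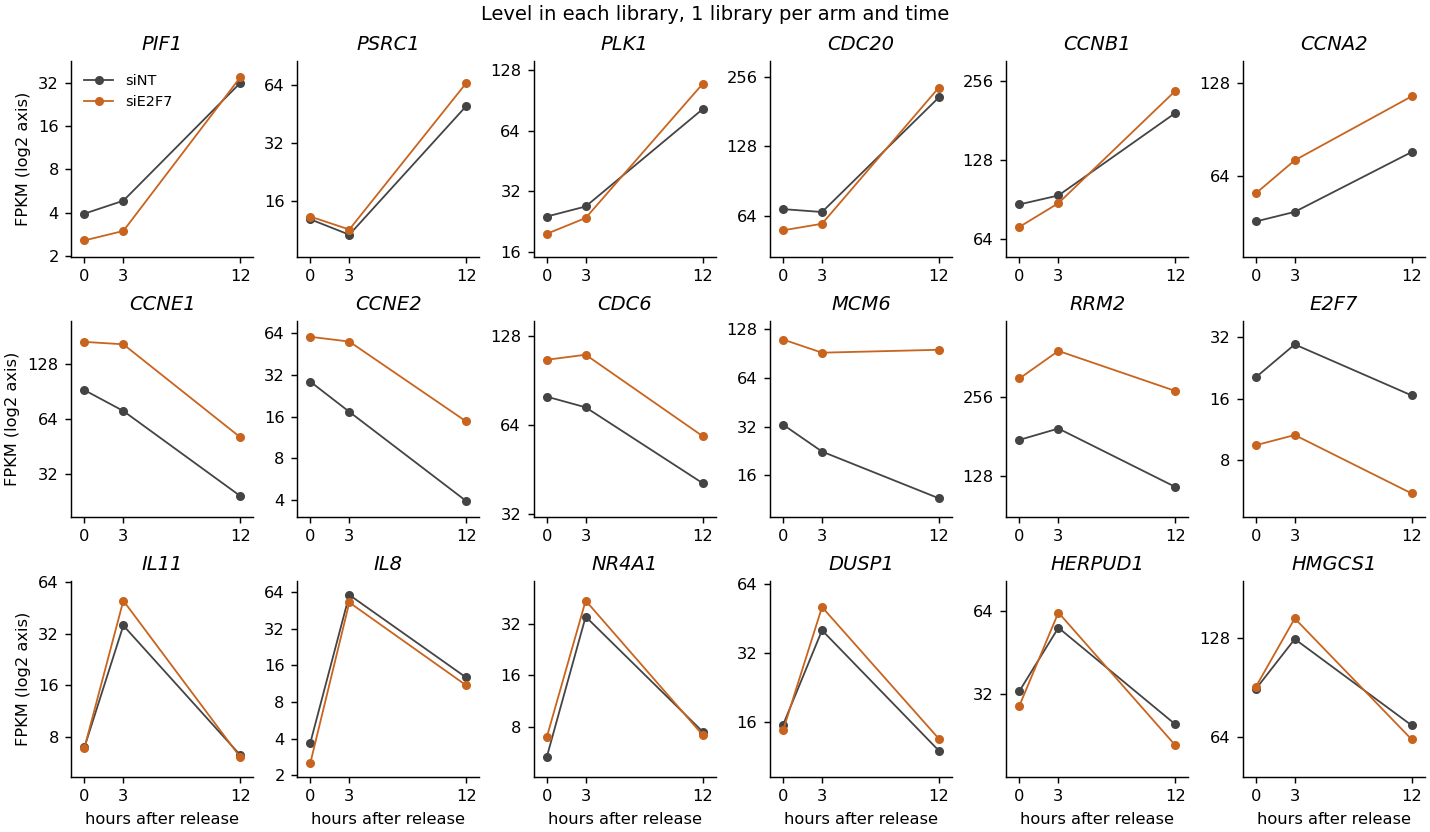
FPKM on a log2 axis at 0, 3 and 12 h in siNT (grey) and siE2F7 (orange), 1 library per point. PIF1, which is in no list, and the mitotic genes (top) are higher at 12 h than at 3 h in each arm, CCNA2 by the least. E2F-type genes (middle) are higher in siE2F7 at every time except E2F7 itself. In the bottom row IL11, IL8, NR4A1, DUSP1 and HERPUD1 are highest at 3 h, and the sterol gene HMGCS1 is lower at 12 h than at 3 h.

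Replication genes were more often called lower than higher, and most had no call. Over 6 overlapping replication lists together, 43 of 137 tested genes were lower and 15 higher, with a median of -0.17. A published list of S phase genes had 42 members tested, of which 24 were lower and 0 higher, with a median of -0.35. The levels of the 2 arms differed so much that only 6 of the 24 were free of overlap between the times. Among all genes called lower, 993 of 1157 were free of overlap. Over all 42 members the count below both 3 h libraries was also 6, a smaller share than the 22.9% of all genes. Values were below 0 in both arms in 36 of the 42, against 3088 of all 8847 genes. The fit with all 6 libraries called 21 of the list lower. With 1 library left out of that fit the count was 27 without siE2F7 at 12 h, 9 without siNT at 12 h, 10 without siNT at 3 h and 10 without siE2F7 at 3 h.

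Both E cyclins, which activate CDK2 at the start of S phase, fell. CCNE1 (chromosome 19, 30302901 to 30315215) was at 71.1 FPKM in siNT and 165 FPKM in siE2F7 at 3 h and at 24.4 and 51.1 FPKM at 12 h. Both 12 h libraries were below both 3 h libraries, and the change was -1.61 ± 0.09 (SE; limma, adjusted p = 6.9e-06). CCNE2 went from 17.3 and 55.8 FPKM to 3.91 and 14.7 FPKM, a change of -2.01, and shares its locus with another entry. Its siE2F7 library of 12 h was only slightly below its siNT library of 3 h. CDK2, their kinase, fell by 0.49.

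In origin licensing and firing, 10 of 27 genes were lower and 4 higher. CDC6, the loader of the MCM helicase, fell from 73.7 and 111 FPKM to 40.8 and 58.9 FPKM, a change of -0.88 ± 0.09 (SE; limma, adjusted p = 0.00016). Its partner CDT1 fell by 0.52, GINS2 by 0.49 and CDC45 by 0.36. MCM2 fell by 0.34, from 34.7 and 84.3 FPKM to 25.4 and 71.3 FPKM, and its arms were further apart than its times. The 4 that rose were C15orf42 (TICRR, a firing factor, 0.82), ORC2 (0.69), ORC5 (0.61) and DBF4, the activator of the CDC7 kinase (0.60). The fit with all 6 libraries called 8 lower, and this dropped to 1 without either siNT library and to 2 without siE2F7 at 3 h, and was 12 without siE2F7 at 12 h.

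Fork and polymerase genes mostly stayed without a call, with 6 of 35 lower and 3 higher and a median of -0.07. The share lower was 17.1%, near the 13.1% of all genes. CLSPN, the claspin mediator of the fork checkpoint, fell from 12.9 and 16 FPKM to 7.45 and 9.03 FPKM, a change of -0.80 (limma, adjusted p = 0.00094). POLA1, the catalytic subunit of the priming polymerase, fell by 0.46. PCNA, the sliding clamp, fell by 0.33, from 161 and 388 FPKM to 122 and 325 FPKM, shares a locus, and lost its call with all 6 libraries (adjusted p = 0.173). The fit with all 6 libraries called 4 of the list lower, which became 1 without siNT at 3 h and 2 without siNT at 12 h or siE2F7 at 3 h. The single-strand binding subunits RPA1 (-0.06), RPA2 (0.08) and RPA3 (0.01) had no call.

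Of 21 nucleotide synthesis genes 6 fell and 3 rose. RRM2, the regulated subunit of ribonucleotide reductase, which hydroxyurea inhibits, fell from 194 and 383 FPKM to 116 and 270 FPKM, a change of -0.62 (limma, adjusted p = 0.0033). DUT fell by 0.46, whereas TYMS (-0.16) and TK1 (-0.14) had no call. With all 6 libraries 6 were also lower, and the list had 0 lower calls without siNT at 12 h, 1 without siNT at 3 h and 2 without siE2F7 at 3 h. DUT lost its call in that fit with no library left out. CAD, which starts pyrimidine synthesis, rose by 0.47.

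Of 23 genes of histone supply and chromatin assembly 7 were lower, 2 higher and 14 without a call. SLBP, which binds the stem-loop of replication histone mRNAs, fell by 0.87, from 32.7 and 69.8 FPKM to 21.0 and 32.6 FPKM. NPAT, the activator of histone genes, fell by 0.56, and the CAF-1 subunits CHAF1A and CHAF1B fell by 0.48 and 0.46. Outside this list, H2AFX, a histone variant of the DNA damage response, rose by 0.74. With all 6 libraries 7 of the 23 were also lower, against 2 without siE2F7 at 3 h, 3 without siNT at 3 h and 4 without siNT at 12 h.

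Of 7 mismatch repair genes 4 were lower and 1 higher, of 24 homologous recombination genes 3 and 1, and of 12 Fanconi genes 1 and 1. The homologous recombination and Fanconi lists had 12.5% and 8.33% lower, not above the 13.1% of all genes. They had 4.17% and 8.33% higher, under the 14.4% of all genes. The fit with all 6 libraries called 3 mismatch repair genes lower, and 2 without either siNT library or without siE2F7 at 3 h. EXO1, the exonuclease of mismatch repair and end resection, fell by 0.97, from 35.2 and 50.4 FPKM to 17 and 27.2 FPKM. UNG, which removes uracil from DNA, fell by 0.87. MSH6, a mismatch repair protein, fell by 0.60, while PMS2, another, rose by 0.57. RBBP8, the resection factor CtIP, fell by 0.65, and BRCA1 (0.00) and BRCA2 (-0.05) had no call. In the Fanconi list USP1 fell by 0.46 and FANCD2 (0.07) had no call.

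**Figure D4:**
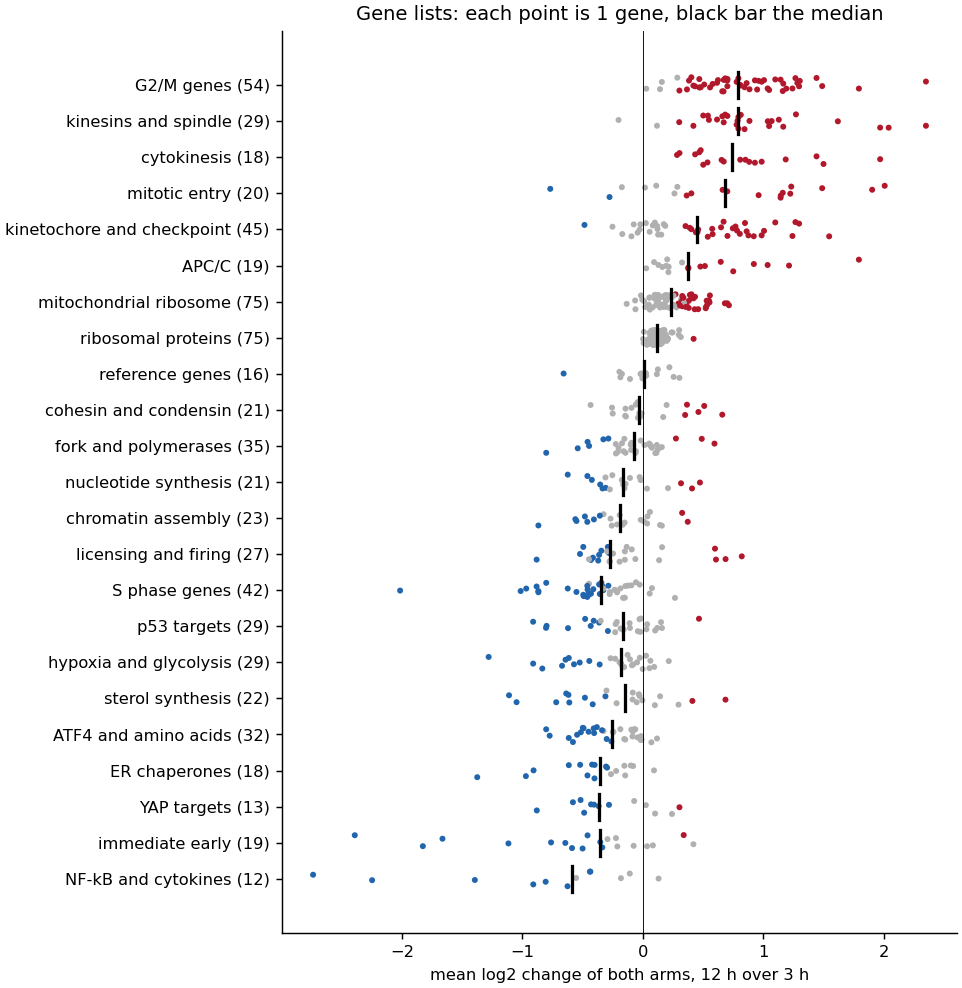
Mean log2 change of both arms for every tested member of 23 lists, with the number tested in brackets. Points are genes, red called higher, blue called lower and grey not called, and black bars are medians, from 0.79 for the G2/M genes to -0.59 for the NF-kB and cytokine genes.

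Of 12 genes of E2F factors and pocket proteins 3 fell and none rose, and 1 was lower without siNT at 3 h in the fit with all 6 libraries, which gave 3 lower and 1 higher. E2F1, the activator, was at 23.4 FPKM in siNT and 67.4 FPKM in siE2F7 at 3 h and at 12.0 and 54.2 FPKM at 12 h, a change of -0.63 (limma, adjusted p = 0.0079). Its fall was 0.95 in siNT and 0.31 in siE2F7. E2F8, the second atypical repressor, had a change of -0.19 without a call and stood at 11.8 and 11.7 FPKM in the siE2F7 libraries. RB1 fell by 0.49, and E2F3 (-0.02) and E2F4 (0.27) had no call.

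Cytokines and fast-response genes were among the largest falls. IL11, a cytokine of the IL-6 family (chromosome 19, 55875757 to 55881814), had the largest fall. It was at 35.7 FPKM in siNT and 49.7 FPKM in siE2F7 at 3 h and at 6.32 and 6.14 FPKM at 12 h. The 0 h libraries were at 6.99 and 6.93 FPKM, so the 3 h libraries stood above those of both other times. The change was -2.74 ± 0.13, or 6.67-fold (SE; limma, adjusted p = 3e-06). IL8, the neutrophil chemokine CXCL8 (chromosome 4, 74606223 to 74609433), was at 3.71 and 2.53 FPKM at 0 h, 60.7 and 52.6 FPKM at 3 h, then 12.7 and 11 FPKM at 12 h. CCL20, another chemokine, fell from 27.3 and 24.9 FPKM to 5.80 and 3.02 FPKM.

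In the list of NF-kB targets and cytokines 8 of 12 genes fell and none rose, with a median of -0.59. BIRC3, an inhibitor of apoptosis, fell from 30.7 and 12.9 FPKM to 11.4 and 4.94 FPKM, and the siNT library was the higher at both times. The NF-kB subunits NFKB1 (-0.91), RELB (-0.81) and NFKB2 (-0.44) fell. NFKBIA, the feedback inhibitor of NF-kB, had a change of 0.13 without a call. CCL2 had changes of -0.06 in siNT and -1.05 in siE2F7 and no call.

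Of 19 immediate early genes 11 fell and 1 rose. NR4A1, an orphan nuclear receptor (chromosome 12, 52416616 to 52453291), went from 5.34 and 6.97 FPKM at 0 h to 35.1 and 43.5 FPKM at 3 h, then 7.53 and 7.21 FPKM at 12 h. Its fall was 2.39 ± 0.11 on the log2 scale (SE; limma, adjusted p = 3e-06). DUSP1, a phosphatase that shuts off MAP kinases, fell from 40.3 and 50.9 FPKM to 12.0 and 13.5 FPKM. ATF3 fell by 1.66 and JUNB by 1.12. KLF6 was the riser, with 0.34 (adjusted p = 0.0596 with all 6 libraries), while JUN (-0.08) and FOSL1 (0.08) had no call. The fit with all 6 libraries called 12 of the list lower, and 6 without siNT at 3 h and 7 without siE2F7 at 3 h. EGR1 had opposite changes in the arms, -0.23 in siNT and 1.07 in siE2F7.

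Some genes of growth signalling are given singly, since no list was made for it. AREG, a ligand of the EGF receptor, fell from 41.9 and 49.1 FPKM to 9.56 and 11.1 FPKM, with 2.12 in siNT and 2.14 in siE2F7. HBEGF (-1.45) and TGFA (-1.22), ligands of the same receptor chosen after their values were seen, and KITLG (-1.83), the ligand of the KIT receptor, fell too. SPRY2, a feedback inhibitor of receptor kinases from the immediate early list, fell by 0.76. ID2 and ID3, inhibitors of basic helix-loop-helix factors, fell by 2.05 and 1.66. Of 13 YAP targets 8 fell and AXL rose by 0.30 (adjusted p = 0.0533 with all 6 libraries). Among those lower were CTGF, which fell by 0.49, and CYR61, which fell by 0.41. The 8 were 5 without either siNT library or without siE2F7 at 3 h, in the fit with all 6 libraries, which also gave 8.

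Calls in a pair of stress lists were all in the lower direction. Of 18 chaperones of the endoplasmic reticulum 11 fell and none rose, with a median of -0.35. HERPUD1, which acts in the removal of misfolded proteins, was at 32.7 and 29.0 FPKM at 0 h, at 55.5 and 63.0 FPKM at 3 h and at 24.8 and 20.8 FPKM at 12 h. The abundant chaperone HSPA5 fell by 0.61, from 210 and 204 FPKM to 145 and 126 FPKM, and HSP90B1 (0.09) had no call. The count of 11, the same with all 6 libraries, dropped there to 6 without siE2F7 at 12 h and to 7 without either 3 h library. Of 32 genes of the ATF4 response and amino acid supply 15 fell and none rose, among them the transporter subunit SLC7A5 (-0.77) and the glutathione-degrading enzyme CHAC1 (-0.61). ATF4 itself had -0.25 without a call. Cytosolic heat shock genes stayed apart, with 1 of 21 lower, HSPB8 at -0.99, and 2 higher.

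Of 29 p53 targets 9 fell and 1 rose. CDKN1A, the CDK inhibitor p21, fell from 158 and 261 FPKM to 92.7 and 125 FPKM, a change of -0.91 (limma, adjusted p = 0.00041). In the fit with all 6 libraries 9 were also lower, and 5 without either 3 h library. PMAIP1, which promotes apoptosis, fell by 0.80, while MDM2 (-0.17), BAX (-0.02) and CCNG1 (0.03) had no call. XPC, a sensor of DNA damage, rose by 0.47. Another CDK inhibitor, CDKN1B, rose by 0.41, from 12.0 and 14.6 FPKM to 17.4 and 17.9 FPKM.

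Hypoxia and sterol genes were lower in part. Of 29 hypoxia and glycolysis genes 10 fell, including DDIT4 (-1.28), NDRG1 (-0.91) and VEGFA (-0.57). The core glycolytic enzymes LDHA (0.05), ENO1 (0.00) and PGK1 (-0.11) had no call. With all 6 libraries 10 were also lower, and 5 without siE2F7 at 3 h and 6 without siE2F7 at 12 h. Of 22 sterol genes 9 fell and 2 rose, and the fit with all 6 libraries also gave 9, or 5 without siE2F7 at 3 h. HMGCS1, an early enzyme of sterol synthesis, fell from 127 and 147 FPKM to 69.2 and 62.7 FPKM, a change of -1.05 (limma, adjusted p = 0.00018).

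Among growth and energy genes, the mitochondrial ribosome had the most risers. Of its 75 tested proteins 30 rose and none fell, with a median of 0.24, and MRPL46 (0.71) and MRPL10 (0.70) led. The median was 0.31 in siNT and 0.13 in siE2F7, and the count was 27 in the fit with all 6 libraries, 5 without siNT at 3 h and 17 without siNT at 12 h. Of 75 cytosolic ribosomal proteins 1 rose, and their median was 0.25 in siNT and -0.01 in siE2F7. The fit with all 6 libraries called 3 of the 75 higher, 0 without siNT at 3 h and 49 without siE2F7 at 3 h, so this group depends on which library is used. Of 75 oxidative phosphorylation genes 10 rose (13.3%), near the 14.4% of all genes, with medians of 0.23 in siNT and 0.00 in siE2F7. The fit with all 6 libraries called 7 of them higher, 0 without siNT at 3 h, 2 without siNT at 12 h and 13 without siE2F7 at 3 h. Of 16 commonly used reference genes the transferrin receptor TFRC fell by 0.66 and none rose.

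The arms moved the cell cycle lists to different extents. Among the 54 G2/M genes 47 had the more positive change in siE2F7, and the medians were 0.71 in siNT and 0.84 in siE2F7. Among the 42 S phase genes 31 had the more positive change in siE2F7, with medians of -0.47 in siNT and -0.26 in siE2F7. Over all genes 3734 of 8847 had the more positive change in siE2F7. These differences between arms rest on 1 library per arm and time and have no test.

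Single replication genes show the spread. MCM6, a helicase subunit, went from 22.4 to 11.5 FPKM in siNT and from 91.5 to 95.4 FPKM in siE2F7. WDR76, a chromatin protein, went from 5.76 to 2.07 FPKM in siNT and from 24.4 to 16.2 FPKM in siE2F7. Both were higher in siE2F7 at every time, 0 h included, where MCM6 was at 32.9 and 110 FPKM. In contrast CDC6 had nearly equal changes of -0.85 and -0.91, as did CLSPN, with -0.78 and -0.82.

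**Figure D5:**
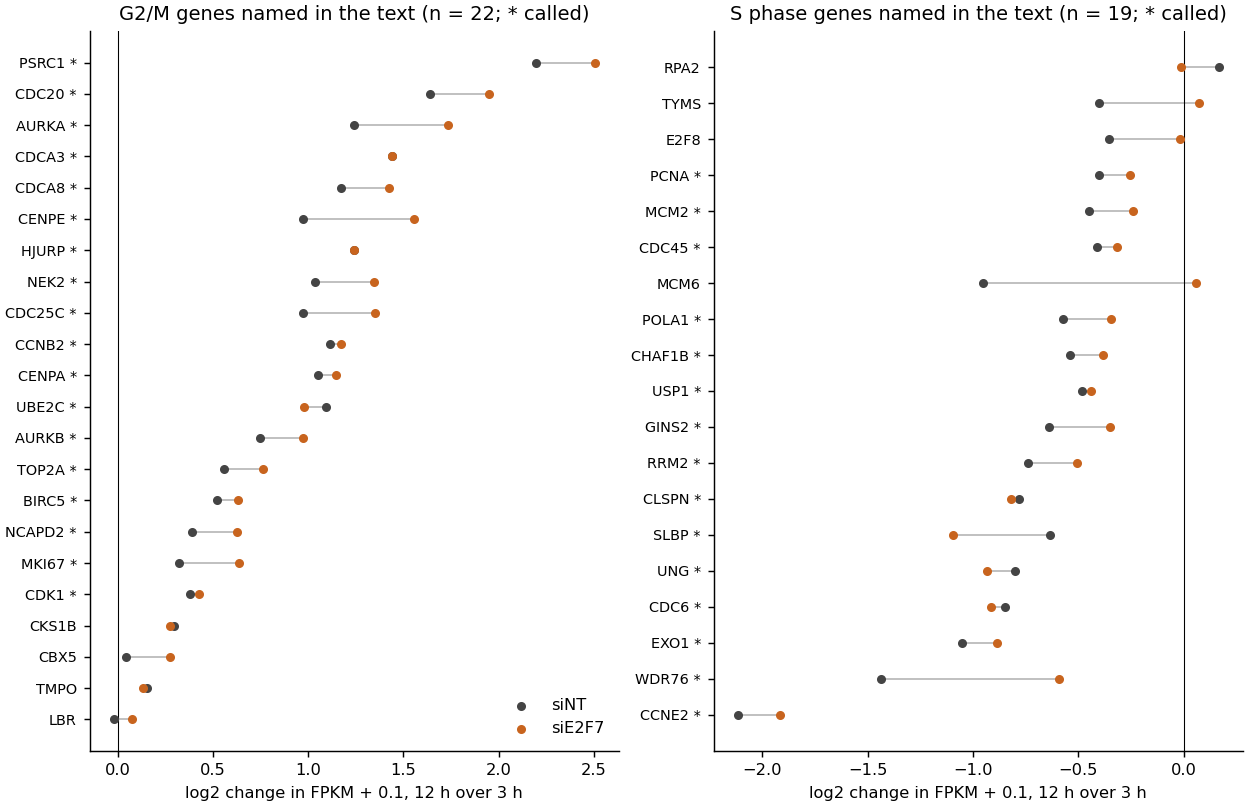
Log2 change from 3 h to 12 h in siNT (grey) and siE2F7 (orange) for the members named in the text of the G2/M list (left, 22 of 54 tested) and the S phase list (right, 19 of 42 tested), with called genes starred. Orange points lie to the right of grey ones in 17 of the 22 G2/M genes and 14 of the 19 S phase genes drawn, and MCM6 is the one with the widest gap.

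Replication-dependent histone genes had the arms in opposite directions for several members. The 7 tested genes had a median of 0.57 in siNT and -0.17 in siE2F7, and in all 7 the change was the more negative in siE2F7. HIST1H2BJ went from 16.6 to 23.2 FPKM in siNT and from 11.2 to 3.67 FPKM in siE2F7. HIST1H2AC went from 12.4 to 17.1 FPKM and from 7.87 to 3.69 FPKM. Only HIST1H2BD was called, with 1.02 in siNT and 0.27 in siE2F7, and it lost the call with all 6 libraries (adjusted p = 0.104). These transcripts normally lack a poly(A) tail, and the labels do not say whether the RNA was selected for it.

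Genes listed at only 1 of the times could not be compared. There were 494 such genes at 3 h and 318 at 12 h, and 25 and 20 of them reached 5 FPKM in a library. CAPNS1, a calpain subunit, was listed only at 3 h, at 208 and 105 FPKM, and SLC43A3, a transporter, only at 12 h, at 65.9 and 71.1 FPKM. Absence from a table does not show a low level.

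Of 13 osteoblast markers, those of the cell of origin, 6 were listed at both times. Their summed level was 851 and 792 FPKM at 3 h, then 806 and 688 FPKM at 12 h, and of 5 tested ALPL, the alkaline phosphatase, was called, with a fall of 0.79. RUNX2, the osteoblast transcription factor, was under the level tested and went from 4.12 and 3.00 FPKM to 4.60 and 4.36 FPKM. Of 13 blood cell markers 4 were listed at both times, with sums from 8.55 to 12.2 FPKM. Of 11 epithelial markers 6 were, with sums from 211 to 309 FPKM, nearly all from KRT8 and KRT18. Library sums over all 6 libraries lay between 351305 and 375954 FPKM, with medians from 10.1 to 10.6 FPKM.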

How the data were processed

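U2OS cells were sequenced as 1 library per siRNA and time, and the libraries of 3 h and 12 h were compared. The authors deposited FPKM per gene for each library. The submitters' processing notes name CASAVA 1.8 and hg19 (GRCh37). Neither these notes nor the labels give the aligner, annotation, filters or scaling between times. The tables of 3 h and 12 h list 12475 and 12299 genes and were joined by identifier. A value of exactly 0 may be an estimate that failed, and 56 genes with a library at 0 were therefore left out, 49 of them small RNA entries. With them, 3134 genes were left out by the filter on level. Of 8847 tested genes, 55 are small RNA entries, 1479 share a locus with another entry and 6 carry a date in place of a symbol and were not named. Symbols matched current names in 7844 cases, older names in 807 and neither in 196.

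Log2(FPKM + 0.1) was fitted with limma 3.58.1 in R 4.3.3, with time and arm as terms, a variance trend and Benjamini-Hochberg adjustment. The fit had 1 residual and 8.66 prior degrees of freedom. It was also run on simulated data with known changes and no arm effect, which cannot check the pairing by arm. The scale understates the change of low genes. Depth is unknown, so no counting error is given. Log2 changes per arm are single ratios.

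The text names E2F7, main cyclins and kinases, per list the 4 highest and 4 lowest members, the 20 highest and 20 lowest called genes, the genes with the largest difference between arms and the highest genes listed at 1 time, shortened; further members are named from the fixed lists. Members, lists and tests were chosen with earlier results of these data known. The G2/M and S phase lists are those shipped with Seurat. Named genes that share a locus, where reads may have been divided, include BORA, C15orf42, CCNA2, CCNE2, CENPN, CKS1B, DBF4, EME1, FANCD2, FOXM1, GPSM2, KIF20A, KRT8, KRT18, MSH6, NBL1, NUMA1, PCNA, RPA3, SMN2, TMPO and TYMS. Lists overlap, are described by counts and medians and have no test. Alternatives covered the pseudocount, the filter, scaling, the variance trend, the arm block, all 6 libraries and each library left out. Coordinates are hg19, counted from 1; promoters are RefSeq sequences on GRCh38.p14, matched by symbol.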

Additional observations from a re-analysis of the deposited data

Results flagged for a closer look

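Of the 8847 genes, 8 changed at least 1.5-fold in opposite directions in the arms. The difference between the arms was not tested, since each arm had 1 library per time. Values are the change in siE2F7 minus the change in siNT, on the log2 scale.

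Of these, 4 are small RNA entries, whose FPKM over short lengths are unsteady. MIR1304 had a difference of 2.73, MIR4444-1 one of -2.91, SNORA81 one of -2.62 and SNORD5 one of 3.28. The levels of SNORD5 were 8.84 and 3.16 FPKM at 3 h, then 2.96 and 10.8 FPKM at 12 h in siNT and siE2F7.

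The other 4 share a locus or a near-identical copy with another entry. NBL1, a secreted BMP antagonist, had -3.26, going from 2.05 to 7.57 FPKM in siNT and from 16 to 5.91 FPKM in siE2F7. NME1-NME2, a readthrough entry, had -2.36. SMN2 had 2.42 and its copy SMN1 had -1.44, opposite to each other in both arms. SMN1 went from 24.0 to 39.2 FPKM in siNT while SMN2 went from 18.7 to 5.75 FPKM there.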

How the results depend on the processing

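Of 1276 and 1157 genes called higher and lower, all kept their direction after quantile normalization. The filter on level, the variance trend and the arm block do not enter the log2 change of a gene in these 4 libraries. They could therefore not alter its direction, and the same holds for the 906 calls still measured at a minimum of 20 FPKM. At a pseudocount of 1 FPKM no call could turn either, since all 2433 had the same sign in both arms. Centring moved the median change only from 0.029 to 0.009, and the smallest called change was 0.256 in size. Centring gave 48.3% of calls as higher, against 52.4% in the main test. A minimum of 20 FPKM, which leaves 3707 genes, gave 485 higher and 430 lower calls, 23 genes 2-fold higher and 23 genes 2-fold lower in both arms. At a minimum of 1 FPKM 120 genes, and with no filter 121, were 2-fold lower. Without the arm block there were 3 and 5 calls. Leaving out each library without the block gave 0 calls in either direction, with 866 to 1559 genes at an unadjusted p under 0.05, and 2391 to 2424 of 2433 calls kept their direction. The planned fit with all 6 libraries and the arm block gave 1266 higher and 1155 lower calls. Leaving 1 library out of that fit, a step added after the 0 calls were seen, gave 545 to 888 higher and 617 to 974 lower calls. The 545 and 617 came without siNT at 3 h, 811 and 617 without siE2F7 at 3 h, and 834 higher without siE2F7 at 12 h. At least 2428 of 2431 calls kept their direction there. With a library left out and no block the arm difference enters the time change by construction, and the log2 changes of these named genes crossed 0, from the lowest to the highest value: CDC45 (-1.03 to 0.31), DUT (-1.46 to 0.54), E2F1 (-1.71 to 0.45), GINS2 (-1.45 to 0.46), HIST1H2BD (-0.15 to 1.45), MCM2 (-1.09 to 0.40), PCNA (-1.03 to 0.38) and WDR76 (-2.47 to 0.44). The pairing by arm was the only one used, since the labels give no replicate numbers. Depth is unknown, so no limit by counting can be given.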

Other observations

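Beyond the lists, 59 of the 71 genes that fell at least 2-fold in both arms had no place in any list. The following 4 were chosen after their values were seen. CD274, the immune checkpoint ligand PD-L1, stood at 3.02 and 2.39 FPKM in siNT and siE2F7 at 0 h, 8.77 and 7.48 FPKM at 3 h, then 3.88 and 2.04 FPKM at 12 h. CLDN1, a tight junction protein, went from 6.71 and 9.54 FPKM at 3 h to 2.35 and 3.47 FPKM at 12 h. LEF1, a transcription factor of the Wnt pathway, went from 13.1 and 24.2 FPKM to 5.88 and 8.96 FPKM, and GCH1, the first enzyme of tetrahydrobiopterin synthesis, from 8.96 and 15.3 FPKM to 2.66 and 4.34 FPKM.

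Called genes differed in the length of their loci. Leaving out small RNA entries and shared loci, the median locus was 19870.5 bases for 1028 genes called higher, 44547.5 bases for 1034 called lower and 29439 bases for 5295 not called. The middle ranges overlap, from 8600 to 42686 bases for higher and from 18062 to 98680 bases for lower genes. Genes are not independent, and this is given without a test.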
